A study of Mus musculus with 16 samples.

Results

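Interleukin 1 (IL-1) family ligands and receptors were followed in mouse bone marrow-derived macrophages given lipopolysaccharide (LPS), with and without the REV-ERB agonist SR9009. The set held 7 genes, chosen by name from a count table of 56748 genes: the receptor antagonist Il1rn, the agonists Il1a and Il1b, the receptors Il1r1, Il1r2 and Il1rap, and the interleukin 18 binding protein Il18bp. These genes and the lists below were chosen with earlier results of these data known. The numbers of them called, set beside all genes, are therefore a description. Of the 7, 6 passed the filter on low counts, as did 13438 genes in all, and Il1r2 did not.

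Bone marrow of 4 male C57BL6 mice of wild-type genotype was differentiated into macrophages in medium with L929 cell supernatant, which supplies macrophage colony-stimulating factor. Each mouse gave 1 library to each of 4 groups, 16 in all: 10 µM SR9009 for 16 hours and then 100 ng/mL LPS for 6 hours (SR9009+LPS), LPS alone, SR9009 alone, and the vehicle DMSO. Polyadenylated RNA was sequenced. The treatment protocol gives SR9009 or DMSO before LPS, while the label of the LPS group names LPS only, and the mice's age is not given in the sources used here.

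IL-1α and IL-1β bind the receptor IL-1R1, which then recruits the accessory chain IL-1RAP and signals through the adaptor MyD88 to NF-κB. The antagonist made from Il1rn occupies IL-1R1 without recruiting the accessory chain, and IL-1R2 is a decoy that binds ligand without signalling. IL-18 binding protein traps IL-18, a related cytokine. LPS activates Toll-like receptor 4, and macrophages then make both the agonists and the antagonist. REV-ERBα and REV-ERBβ are nuclear receptors of the circadian clock that repress transcription at sites built on the core letters AGGTCA.

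All 7 members had protein-coding gene models on the GRCm39 build used by the authors. Il1rn lay on chromosome 2 (24226865 to 24241506, plus strand), as did Il1a (129141530 to 129151892, minus strand) and Il1b (129206490 to 129213059, minus strand). Il1r2 (40113239 to 40164391) and Il1r1 (40264240 to 40356417) lay beside each other on the plus strand of chromosome 1, Il1rap on chromosome 16 (26400454 to 26548867, plus strand) and Il18bp on chromosome 7 (101664092 to 101667897, minus strand).

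Promoter windows of 300 bases, from 250 before to 50 after an annotated start, were taken from RefSeq on the earlier build GRCm38.p6, where all 7 members had at least 1 window. Those shown are of the antagonist, the agonists and Il18bp, the last of which was, with Il1rn, called in SR9009+LPS against LPS. Il1rn had 3 annotated starts, and the gene-level counts do not tell its transcripts apart. Capitals mark matches to the motifs searched on both strands: AP-1 (TGANTCA), C/EBP (TTGCNNAA), the core site AGGTCA (its reverse complement is TGACCT), the antioxidant response element (TGACNNNGC) and kappa B by its name. The upstream Il1rn window is chr2:24336610-24336909 (plus strand) and the most downstream one is chr2:24345121-24345420 (plus strand). The Il1a window is chr2:129309923-129310222, the Il1b window is chr2:129371090-129371389 and the Il18bp window is chr7:102018183-102018482, all 3 on the minus strand and written 5′ to 3′ along the gene.
Il1rn, upstream start: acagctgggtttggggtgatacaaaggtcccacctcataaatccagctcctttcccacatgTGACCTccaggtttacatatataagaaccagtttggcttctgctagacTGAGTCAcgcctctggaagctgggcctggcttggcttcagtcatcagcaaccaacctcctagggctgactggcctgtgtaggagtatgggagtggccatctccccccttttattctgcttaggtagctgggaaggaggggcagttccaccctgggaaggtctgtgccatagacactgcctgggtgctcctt
Il1rn, most downstream start: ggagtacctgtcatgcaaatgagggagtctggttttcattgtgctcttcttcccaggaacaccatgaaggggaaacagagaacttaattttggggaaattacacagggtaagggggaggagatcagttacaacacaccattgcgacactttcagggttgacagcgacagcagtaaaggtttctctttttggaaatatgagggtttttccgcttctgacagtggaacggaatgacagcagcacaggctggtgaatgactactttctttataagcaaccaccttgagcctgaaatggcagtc
Il1a: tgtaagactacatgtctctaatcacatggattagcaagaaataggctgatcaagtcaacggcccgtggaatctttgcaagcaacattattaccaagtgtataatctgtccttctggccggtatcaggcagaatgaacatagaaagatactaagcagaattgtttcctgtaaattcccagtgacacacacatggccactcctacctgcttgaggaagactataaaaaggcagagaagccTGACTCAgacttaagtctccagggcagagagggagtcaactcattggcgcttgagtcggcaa
Il1b: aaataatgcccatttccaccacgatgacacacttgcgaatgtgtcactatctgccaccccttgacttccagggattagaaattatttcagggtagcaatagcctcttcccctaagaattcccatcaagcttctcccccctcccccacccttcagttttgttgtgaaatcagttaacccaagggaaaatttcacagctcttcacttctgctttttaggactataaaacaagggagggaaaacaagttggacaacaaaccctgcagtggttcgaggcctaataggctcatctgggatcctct
Il18bp: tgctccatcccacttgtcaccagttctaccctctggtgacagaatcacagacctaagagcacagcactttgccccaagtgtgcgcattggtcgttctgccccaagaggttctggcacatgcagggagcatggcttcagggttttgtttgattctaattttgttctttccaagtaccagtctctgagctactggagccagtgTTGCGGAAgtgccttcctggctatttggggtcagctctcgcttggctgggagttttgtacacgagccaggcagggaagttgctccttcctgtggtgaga

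The upstream Il1rn window held TGAGTCA, an AP-1 match, and TGACCT, the core site read on the other strand. The Il1a window held the AP-1 match TGACTCA close to its start, and the Il18bp window held the C/EBP match TTGCGGAA. No motif searched matched in the Il1b window or in the downstream Il1rn windows. Over 32851 RefSeq promoter windows, AP-1 letters were present in 7.81%, C/EBP letters in 10.8%, the core site in 16.3%, the antioxidant response element in 12.4% and kappa B in 4.51%, so such matches are common. A match is a description of letters in these windows, and binding was not measured.

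Library totals ran from 12616442 to 24214863 counts. The SR9009 library of mouse 1 had the lowest total and counts in 13298 genes, against 16419 to 18947 in the other libraries. All 7 macrophage markers (Adgre1, Csf1r, Cd68, Itgam, Lyz2, Mertk and Fcgr1) had counts in every group, with summed levels of 5230 to 10000 CPM (counts scaled to a common library size by the trimmed mean of M values, TMM). Of 8 neutrophil markers, 5 were at 0 in both LPS groups, and their sum stayed between 0.707 and 5.75 CPM in SR9009+LPS, 2.16 and 7.24 CPM in LPS, 0.256 and 0.906 CPM in SR9009, and 0.182 and 0.385 CPM in DMSO. The sum of 3 endothelial markers, nearly all of it from Kdr, was 88.9 to 188 CPM in SR9009+LPS, 95.4 to 191 CPM in LPS, 3.34 to 12.2 CPM in SR9009 and 6.92 to 17.5 CPM in DMSO, while its member Cdh5 averaged 1.13, 4.42, 0.133 and 0.453 CPM in the same order. The part of these lists in the results below was not tested. In such bulk libraries, fewer cells that make a transcript and less of it per cell cannot be told apart.

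LPS without SR9009 raised 5 of the 6 tested members relative to DMSO: the antagonist, both agonists, the accessory chain and Il18bp. This compares with 39.8% of all genes called in either direction, 19.4% higher and 20.4% lower, by edgeR's quasi-likelihood test at an adjusted p under 0.05. The median log2 fold change was 5.70 over the 6 members and -0.08 over all genes tested. Il1r1, which was not called, had higher CPM in all 4 LPS libraries than in all 4 DMSO libraries, while its raw counts overlapped. Il1a passed the filter on low counts through LPS-treated libraries alone, so its difference from DMSO was partly fixed by the filter.

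Il1rn gave 1318, 2306, 2613 and 2944 CPM in the LPS libraries of mice 1 to 4, against 8.56, 11.8, 6.05 and 7.79 CPM in their DMSO libraries. Within mice the log2 difference was 7.26 to 8.75, with no overlap between groups. The fitted log2 fold change was 8.07 ± 0.41 (SE, n = 4 each; edgeR adjusted p = 5.51e-09).

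Il1b, the agonist that is cleaved before release, gave 433.2, 599.1, 1168 and 1273 CPM in LPS libraries, against 7.05, 7.15, 1.00 and 0.822 CPM in DMSO libraries. Mice 1 and 2 had more Il1b than mice 3 and 4 in DMSO and less in LPS. For Il1b the log2 fold change was 7.77 ± 1.53 (edgeR adjusted p = 0.000775), with an SE well above that of Il1rn.

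Il1a, whose precursor is already active at the receptor, gave 2.41, 8.61, 24.5 and 38.9 CPM in LPS libraries. Its DMSO libraries held 7 counts in sum, so its fitted log2 fold change of 8.03 ± 1.20 (edgeR adjusted p = 7.2e-05) depends on the prior count. The order of the mice in LPS libraries was the same as for Il1b.

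Il18bp gave 76.5, 104.7, 68.8 and 79.0 CPM in LPS libraries, against 9.24, 8.88, 3.88 and 4.47 CPM in DMSO libraries, a log2 fold change of 3.64 ± 0.32 (edgeR adjusted p = 5.31e-07). Il1rap gave 85.9, 78.1, 46.3 and 48.2 CPM in LPS libraries, against 14.5, 13.4, 12.7 and 12.4 CPM in DMSO libraries, a log2 fold change of 2.29 ± 0.38 (edgeR adjusted p = 0.000186). Both groups of 4 were apart for each of these genes, and the DMSO libraries of Il1rap were within a narrow band.

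The ligand-binding receptors were near the limit of detection at this depth. Il1r1 had 10, 23, 9 and 7 counts in LPS libraries, against 10, 8, 5 and 13 counts in DMSO libraries, a log2 fold change of 1.41 ± 0.60 (edgeR adjusted p = 0.0747). It passed the threshold in 5 of 29 alternatives, with adjusted p from 0.0115 to 0.441 over all of them. Il1r1 reached the count filter in only 4 libraries, 2 of LPS and 2 of DMSO. Il1r2 had 8, 3, 2 and 1 counts in LPS libraries, against 2, 0, 2 and 0 counts in DMSO libraries, too few to test.

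**Figure D1:**
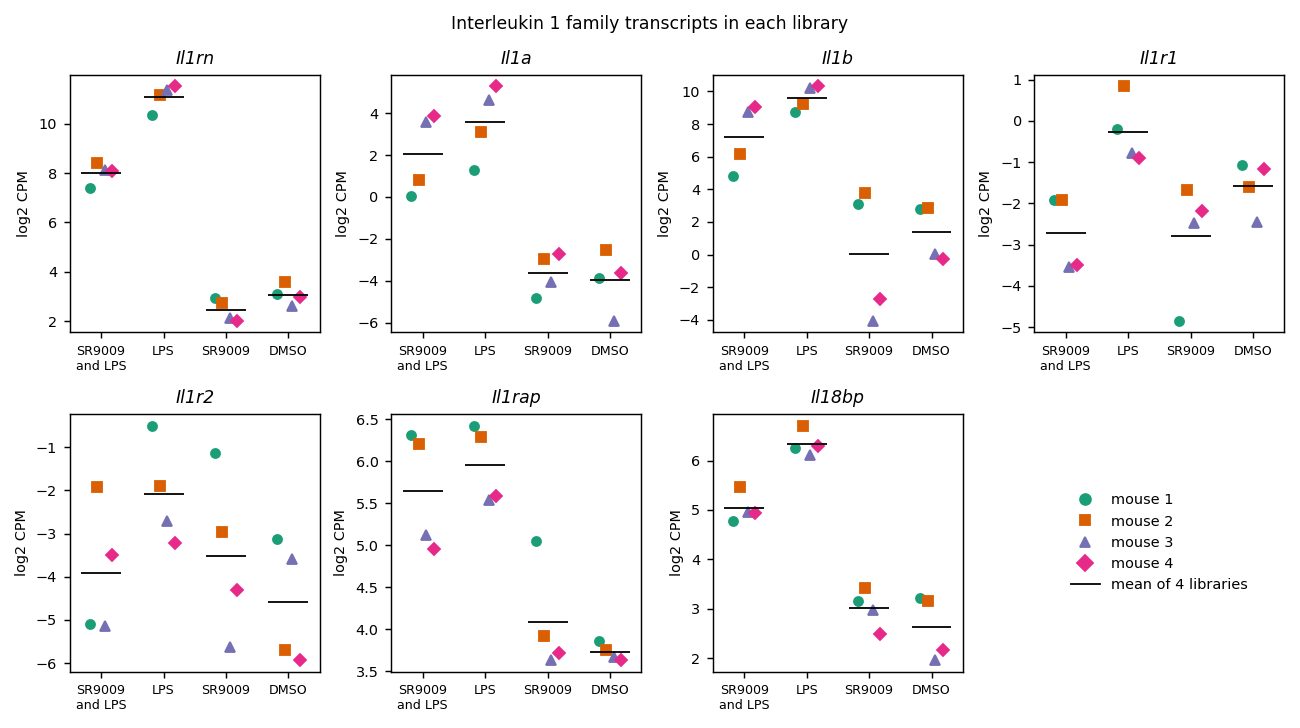
Each panel plots 1 member, with the log2 of its CPM (0.5 counts added) on the vertical axis and the 4 groups on the horizontal axis. Points are single libraries, shaped and coloured by mouse, and bars are means of 4. Il1rn separates all 4 SR9009+LPS libraries from all 4 LPS libraries, while for Il1b and Il1a the mice are spread widely within each group.

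SR9009 before LPS lowered the antagonist and Il18bp relative to LPS alone, and the agonists were lower in every mouse without passing the test. edgeR called 2 of the 6 tested members, both lower, where 1.79% of all genes were called in either direction, 1.06% higher and 0.737% lower. The median log2 fold change was -1.53 over the 6 members and 0.02 over all genes tested. With mouse number in the model, edgeR called 3 members, the third being Il1r1, and 535 genes in place of 241.

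Il1rn gave 167.0, 340.8, 277.8 and 269.5 CPM in the SR9009+LPS libraries of mice 1 to 4, against 1318, 2306, 2613 and 2944 CPM in their LPS libraries. The groups did not overlap, and the highest SR9009+LPS library was far below the lowest LPS library. The log2 fold change was -3.12 ± 0.33 (SE, n = 4 each; edgeR adjusted p = 0.000253), a level 8.7-fold lower. Within mice the level was 7.89, 6.77, 9.41 and 10.9 times lower in SR9009+LPS than in LPS. The call held under all 31 alternatives with a value, with adjusted p from 3.29e-19 (DESeq2) to 0.0426 (without mouse 4).

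Il18bp gave 27.6, 44.4, 31.2 and 30.6 CPM in SR9009+LPS libraries, against 76.5, 104.7, 68.8 and 79.0 CPM in LPS libraries. The groups did not overlap, and the difference was alike in the 4 mice, between -1.47 and -1.14 on the log2 scale. It had a log2 fold change of -1.30 ± 0.30 (edgeR adjusted p = 0.0363), a level 2.46-fold lower. This call ended in 12 of 31 alternatives, with adjusted p from 0.0504 to 0.289: with no filter, without mouse 2, 3 or 4, without the SR9009+LPS library of mouse 1, 3 or 4, without any 1 of the 4 LPS libraries, and with mouse 3's SR9009 library omitted. With mouse number in the model its adjusted p was 0.00774.

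Il1b gave 28.3, 71.3, 434.9 and 521.7 CPM in SR9009+LPS libraries, against 433.2, 599.1, 1168 and 1273 CPM in LPS libraries. The groups overlapped, although each mouse had less Il1b in SR9009+LPS than in LPS. The level was 15.3, 8.41, 2.69 and 2.44 times lower in mice 1 to 4, so mice 1 and 2 showed the larger differences. The fitted log2 fold change was -1.72 ± 1.16 (edgeR adjusted p = 0.581).

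Il1a gave 0.999, 1.71, 11.8 and 14.7 CPM in SR9009+LPS libraries, against 2.41, 8.61, 24.5 and 38.9 CPM in LPS libraries. It too was lower in 4 of 4 mice, by 2.42, 5.04, 2.08 and 2.65 times, with groups that overlapped. The log2 fold change was -1.35 ± 0.82 (edgeR adjusted p = 0.515), and it passed the threshold in 1 alternative, with mouse number in the model and mouse 1's SR9009 library omitted (-1.40, adjusted p = 0.0288). The labels name no batch or culture date that sets mice 1 and 2 apart from mice 3 and 4.

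The accessory chain Il1rap gave 79.7, 73.9, 34.7 and 31.1 CPM in SR9009+LPS libraries, against 85.9, 78.1, 46.3 and 48.2 CPM in LPS libraries. The difference was small in each mouse, from 1.06 to 1.55 times lower, and the groups overlapped. Il1rap had a log2 fold change of -0.24 ± 0.36 (edgeR adjusted p = 0.862). Mice 1 and 2 had more Il1rap than mice 3 and 4 in both LPS-treated groups.

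Il1r1 had 4, 4, 1 and 1 counts in SR9009+LPS libraries, against 10, 23, 9 and 7 counts in LPS libraries. The CPM values of the groups did not overlap, on 10 and 49 counts in sum. The log2 fold change was -2.58 ± 0.68 (edgeR adjusted p = 0.0735). It was past the threshold in 4 of 28 alternatives, among them mouse number in the model (adjusted p = 0.0434), and not in 24, with adjusted p up to 0.464. No SR9009+LPS library of Il1r1 reached the count filter, which it passed through LPS and DMSO libraries, so these values are a description and not support for a difference. Il1r2 had 0, 4, 0 and 1 counts in SR9009+LPS libraries, against 8, 3, 2 and 1 counts in LPS libraries, and no difference was detectable at this depth.

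**Figure D2:**
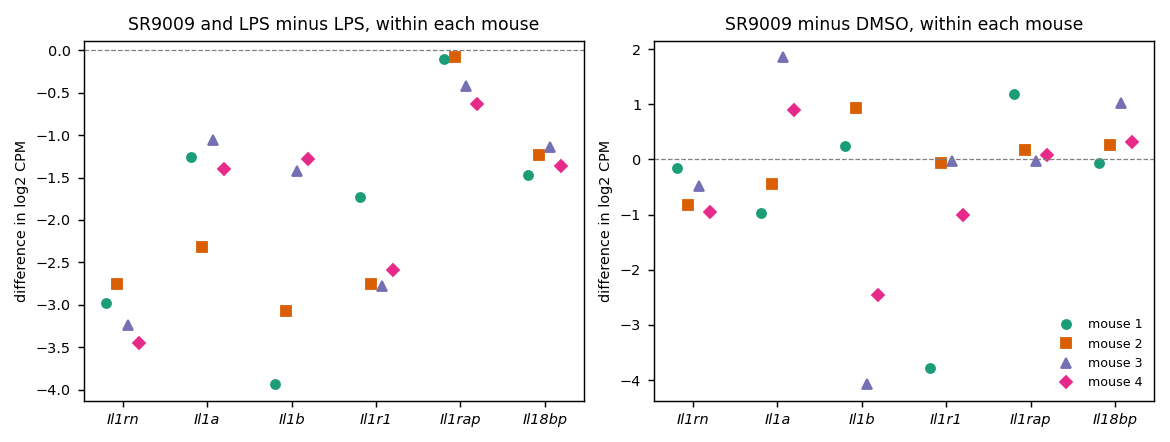
Differences in log2 CPM within each mouse for the 6 tested members, SR9009+LPS minus LPS on the left and SR9009 minus DMSO on the right. Points are mice. On the left the points lie below 0, those of Il1rn between -3.45 and -2.76 and those of Il1b between -3.94 and -1.29. Those of Il1rap lie between -0.63 and -0.08, and those of Il1r1 rest on 10 counts in sum in SR9009+LPS and 49 in LPS. The share of all genes that were lower in every mouse was not computed. On the right most members have points on both sides of 0.

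SR9009 without LPS changed no member past the threshold. edgeR, DESeq2 and limma-voom each called 0 of the 6 tested members and found 0 at an unadjusted p under 0.05, where edgeR called 0.878% of all genes. With mouse number in the model it called 198 genes in place of 118, and again 0 members. Il1rn gave 7.67, 6.69, 4.31 and 4.03 CPM in SR9009 libraries, against 8.56, 11.8, 6.05 and 7.79 CPM in DMSO libraries. It was lower in 4 of 4 mice, but the groups overlapped, and the log2 fold change was -0.60 ± 0.31 (edgeR adjusted p = 0.465). With mouse number in the model and mouse 1's SR9009 library omitted, the value was -0.97 (adjusted p = 0.0507).

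Il1b gave 8.36, 13.7, 0.0403 and 0.136 CPM in SR9009 libraries, against 7.05, 7.15, 1.00 and 0.822 CPM in DMSO libraries. Those SR9009 values rest on 120, 374, 1 and 4 counts. Mice 1 and 2 had more in SR9009 and mice 3 and 4 had less, and the log2 fold change was 0.47 ± 1.18 (edgeR adjusted p = 0.892). Il1a had 8 counts in sum over the SR9009 libraries and 7 over the DMSO libraries. Il18bp had means of 8.22 ± 2.12 CPM in SR9009 and 6.62 ± 2.84 CPM in DMSO (SD, n = 4 each).

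Il1rap gave 33.1, 15.1, 12.4 and 13.1 CPM in SR9009 libraries, against 14.5, 13.4, 12.7 and 12.4 CPM in DMSO libraries. Its log2 fold change of 0.47 ± 0.36 (edgeR adjusted p = 0.648) came to -0.01 once mouse 1's SR9009 library was omitted. Il1r1 had 0, 8, 4 and 6 counts in SR9009 libraries, against 10, 8, 5 and 13 counts in DMSO libraries, and its 0 was in that same library of mouse 1.

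LPS after SR9009 still raised the same 5 members relative to SR9009 alone. Of these, Il1a passed the filter on low counts through LPS-treated libraries alone, so its difference was again partly fixed by the filter. edgeR called 5 of 6, all higher, where 30.3% of all genes were called in either direction, 14.5% higher and 15.8% lower. Il1rn had a log2 fold change of 5.54 ± 0.37 (edgeR adjusted p = 9.08e-08), from means of 264 ± 71.9 CPM in SR9009+LPS and 5.67 ± 1.78 CPM in SR9009 (SD, n = 4 each). The same gene had the 8.07 given above for LPS against DMSO.

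Il1b had a log2 fold change of 5.58 ± 1.38 (edgeR adjusted p = 0.00601), and within mice it ranged from 1.75 to 12.81. The top of this range, in mouse 3, rests on 1 count in its SR9009 library. Il1a had a fitted value of 6.40 ± 1.15 (edgeR adjusted p = 0.000547) over 8 counts in the SR9009 libraries. Il18bp had 2.02 ± 0.30 (edgeR adjusted p = 0.000113) and no overlap between groups. Il1rap had 1.58 ± 0.37 (edgeR adjusted p = 0.00421), its groups overlapped through the SR9009 library of mouse 1, and without mouse 2 the adjusted p was 0.0763. Il1r1, with 10 counts in sum in SR9009+LPS and 18 in SR9009, had -0.26 ± 0.73 (edgeR adjusted p = 0.828).

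Over the 4 groups, Il1rn was highest in LPS, then in SR9009+LPS, then in DMSO and SR9009, and DMSO and SR9009 did not differ past the threshold. SR9009+LPS was not tested against DMSO. Il18bp had LPS first and SR9009+LPS second, with no call between SR9009 and DMSO. For Il1b, Il1a and Il1rap the 2 LPS-treated groups did not differ past the threshold, nor did the 2 groups without LPS.

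The interaction asked whether the SR9009 effect with LPS differed from that without LPS. edgeR called 0 of the 6 members, where 0.00744% of all genes, a single gene, were called (15 genes with mouse number in the model). Il1rn and Il18bp were the 2 members at an unadjusted p under 0.05, DESeq2 called both, and limma-voom called 0. For Il1rn the difference was -2.52 ± 0.44 on the log2 scale (edgeR adjusted p = 0.135). It passed the threshold in 7 of 30 alternatives and not in 23. Among those passed were mouse number in the model (-2.57, adjusted p = 0.0459) and leaving out mouse 1 (-2.29, adjusted p = 0.0469). Others were omitting only mouse 1's SR9009 library (-2.27, adjusted p = 0.0312) and DESeq2 (-2.53, adjusted p = 0.00011). For Il18bp it was -1.61 ± 0.42 (edgeR adjusted p = 0.263; DESeq2 adjusted p = 0.0394). Il1b had -2.19 ± 1.65 and Il1a -1.64 ± 1.78, and neither passed in any alternative.

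**Figure D3:**
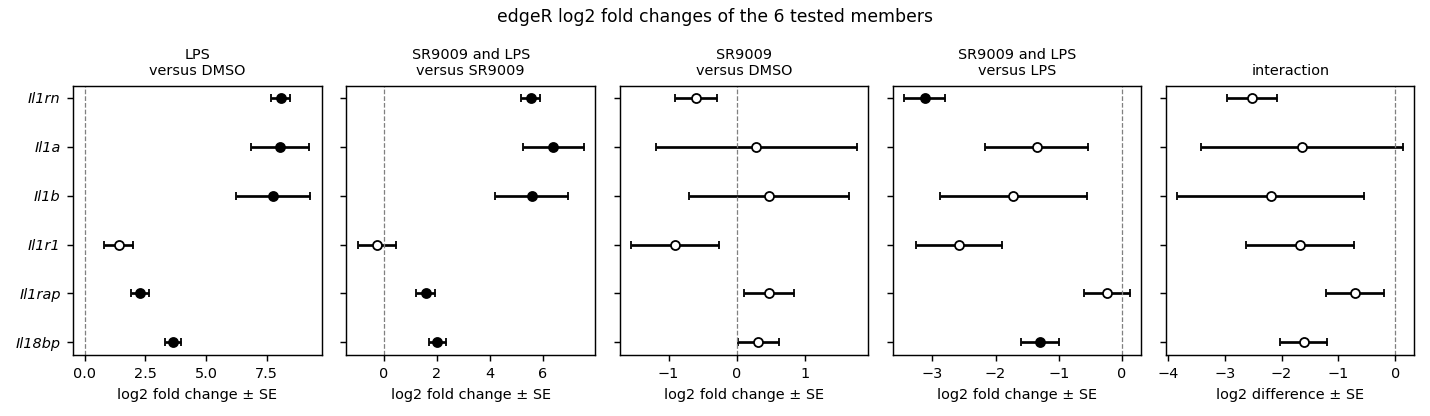
Log2 fold changes of the 6 tested members with their SE, from edgeR over 16 libraries, in 5 panels, 1 for each comparison, with horizontal axes of different ranges. Filled points have an adjusted p under 0.05 and open points do not. In the panel of SR9009+LPS against LPS, Il1rn at -3.12 and Il18bp at -1.30 are filled, and in the interaction panel every point is open.

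Antagonist and agonist were then set against each other per gene length, in FPKM (counts divided by gene length and a constant per library). The lengths were 5535 bases for Il1rn, 1974 for Il1a and 1907 for Il1b. Levels compared between genes depend on these lengths, which are not those of single transcripts. In LPS libraries Il1rn gave 245.4, 422.7, 467.1 and 523.0 FPKM and Il1b 234.1, 318.7, 606.3 and 656.3 FPKM in mice 1 to 4, so the levels of both were of one order. In SR9009+LPS libraries Il1rn gave 30.3, 61.7, 49.1 and 47.6 FPKM and Il1b 14.9, 37.4, 223.1 and 267.6 FPKM. Mice 1 and 2 thus had more Il1rn than Il1b per gene length there, and mice 3 and 4 had less.

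Mean levels of the other members in LPS libraries were 27.3 ± 5.42 FPKM for Il18bp, 9.34 ± 8.14 FPKM for Il1a, 5.74 ± 1.92 FPKM for Il1rap, 0.144 ± 0.0935 FPKM for Il1r1 and 0.145 ± 0.147 FPKM for Il1r2 (SD, n = 4). Without LPS, in DMSO libraries, the highest means were 2.12 ± 0.903 FPKM for Il18bp and 2.04 ± 1.81 FPKM for Il1b, followed by 1.5 ± 0.427 FPKM for Il1rn and 1.13 ± 0.074 FPKM for Il1rap. No test was run between genes, and the SDs of these 4 overlap in part.

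The Il1rn to Il1b ratio per length was 2.03, 1.65, 0.22 and 0.178 in SR9009+LPS libraries of mice 1 to 4, against 1.05, 1.33, 0.77 and 0.797 in LPS libraries. It was higher with SR9009 in mice 1 and 2 and lower in mice 3 and 4. The mean log2 ratio was -0.73 ± 1.86 in SR9009+LPS and -0.06 ± 0.37 in LPS (SD, n = 4 each), a difference of -0.68 (exact two-sided permutation p = 0.457). Without LPS the ratio was 0.316, 0.169, 24.7 and 9.15 in SR9009 libraries, against 0.418, 0.57, 2.05 and 3.21 in DMSO libraries. The SR9009 ratios of mice 3 and 4 rest on 1 and 4 Il1b counts, so they are imprecise.

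The Il1rn to Il1a ratio per length was 57.9, 70, 8.38 and 6.53 in SR9009+LPS libraries, against 192, 95.1, 37.9 and 27.0 in LPS libraries. It was lower with SR9009 in 4 of 4 mice, though the groups overlapped. The mean log2 ratio was 4.44 ± 1.80 in SR9009+LPS and 6.04 ± 1.28 in LPS (SD, n = 4 each), a difference of -1.60 (exact two-sided permutation p = 0.229).

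Over 2 agonists and 5 comparisons, 10 exact tests of the ratio were run, and each had a Benjamini-Hochberg adjusted p of 0.83. The smallest p that 4 against 4 libraries can give is 0.0286, and the sign-flip test of the interaction cannot go below 0.125. Within mice 1 to 4, the log2 ratio to Il1a changed by -1.73, -0.44, -2.18 and -2.05 in SR9009+LPS relative to LPS, lower in 4 of 4 mice (exact sign-flip p = 0.125, the smallest that 4 mice can give). The ratio to Il1b changed by 0.96, 0.31, -1.81 and -2.16 (exact sign-flip p = 0.5), so Il1b differed more than Il1rn in mice 1 and 2 and less in mice 3 and 4. Adjusted over the 10 ratios, both sign-flip p-values were 0.75.

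**Figure D4:**
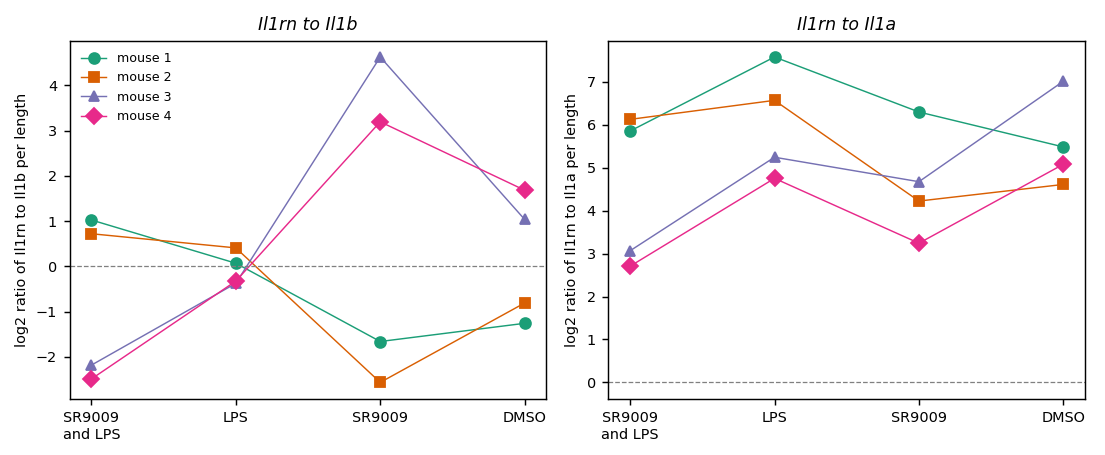
The log2 ratio of Il1rn to Il1b (left) and to Il1a (right), per length with 0.5 counts added, on the vertical axis, against the 4 groups. Each line joins the libraries of 1 mouse, and the dashed line marks equal levels. For Il1b the lines of mice 1 and 2 and those of mice 3 and 4 cross between LPS and SR9009, and for Il1a every line is lower in SR9009+LPS than in LPS. On the left, the SR9009 points of mice 3 and 4 rest on 1 and 4 Il1b counts.

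Across the 16 libraries the log2 CPM of Il1rn followed Il18bp most closely among the members (Pearson r = 0.97), then Il1a (0.929), Il1b (0.909), Il1rap (0.86) and Il1r1 (0.446). The libraries share the LPS difference and their depth, and these values are a description. Those nearest to Il1rn among 9390 other protein-coding genes averaging 5 CPM or more were Chmp4b (0.99), Tnc (0.99), Heatr6 (0.989), Pfkfb3 (0.989) and Glrx (0.989). Those nearest to Il1b were Pde4b (0.982), Pilra (0.969), Epsti1 (0.958), Clic5 (0.956) and Irak3 (0.956).

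Tnc, which encodes the matrix protein tenascin C, had means of 4.36 CPM in SR9009+LPS, 42.0 CPM in LPS, 0.00913 CPM in SR9009 and 0.052 CPM in DMSO. Pfkfb3, a regulator of glycolysis, had means of 649 CPM in SR9009+LPS, 1920 CPM in LPS, 57.3 CPM in SR9009 and 67.1 CPM in DMSO. Both had the order of levels seen for Il1rn, which follows from their choice by correlation with it over these same libraries.

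Other ligands of the family were read from a list of 7, of which Il18 and Il36g passed the filter. Both were higher in LPS than in DMSO (log2 fold changes of 3.86 and 7.17, edgeR adjusted p of 4.25e-06 and 6.84e-05). Il36g had 4 counts in sum in DMSO, where no library reached the count filter, so its difference was partly fixed by the filter. Il18, the cytokine that Il18bp binds, gave 49.2, 49.0, 36.2 and 38.3 CPM in SR9009+LPS libraries, against 82.6, 66.7, 62.8 and 62.6 CPM in LPS libraries. Those groups did not overlap, yet edgeR called neither ligand there, with 0 at an unadjusted p under 0.05, and DESeq2 and limma-voom also called 0. With limma-voom, and in edgeR with mouse number in the model, Il18 was at an unadjusted p under 0.05 but was not called. Il36g, an agonist of the IL-36 receptor, gave 4.70, 2.24, 13.5 and 16.5 CPM in SR9009+LPS libraries, against 1.58, 3.89, 8.07 and 11.2 CPM in LPS libraries.

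In SR9009 against DMSO, edgeR called neither ligand, though both were at an unadjusted p under 0.05, and DESeq2 called Il36g. The sums for Il36g were 42 counts in SR9009 and 4 in DMSO. Il18 gave 19.9, 5.96, 4.39 and 5.32 CPM in SR9009 libraries, against 5.46, 6.08, 3.84 and 3.58 CPM in DMSO libraries, its highest value being again the SR9009 library of mouse 1.

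Of 7 other receptors of the family, 4 were tested. Relative to DMSO, LPS raised Il18rap, the IL-18 receptor accessory chain (2.67, edgeR adjusted p = 0.0335), and lowered Il1rl1, the IL-33 receptor (-3.07, adjusted p = 0.0172), Il1rl2, the IL-36 receptor (-1.55, adjusted p = 0.0322), and Sigirr, a negative regulator of the family (-2.33, adjusted p = 0.0191). Il1rl1 had 91 counts in sum in DMSO and 5 in LPS. None of its LPS-treated libraries reached the count filter, so its difference was partly fixed by the filter. With mouse number in the model, and with limma-voom, Il18rap was not called. Il18rap gave 20.9, 34.8, 2.45 and 1.60 CPM in SR9009+LPS libraries, against 41.9, 34.1, 5.12 and 9.06 CPM in LPS libraries, so mice 1 and 2 again stood above mice 3 and 4. In DMSO libraries it gave 2.64, 2.42, 4.55 and 4.47 CPM, so the rise with LPS was much larger in mice 1 and 2. In SR9009+LPS against LPS, edgeR, DESeq2 and limma-voom called 0 of these 4. There edgeR had 1, Il1rl1, at an unadjusted p under 0.05, on 0 and 5 counts in sum.

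Genes that process and release IL-1 formed a list of 13, all tested. LPS raised 8 and lowered 2 relative to DMSO, where 19.4% of all genes were called higher and 20.4% lower. Their median log2 fold change was 1.57, and that of all genes tested was -0.08. Casp1, the protease that cleaves pro-IL-1β, averaged 379 ± 9.08 CPM in LPS and 62.6 ± 6.32 CPM in DMSO, and the inflammasome sensor Nlrp3 averaged 333 ± 85.0 CPM in LPS and 105 ± 22.7 CPM in DMSO (SD, n = 4 each). The ATP-gated channel P2rx7 fell to 44.7 ± 2.55 CPM in LPS, against 142 ± 17.9 CPM in DMSO.

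In SR9009+LPS against LPS, edgeR called 0 of the 13, with 4 (Casp4, Gsdmd, Mefv and Pycard) at an unadjusted p under 0.05 and a median of -0.34. DESeq2 and limma-voom also called 0, and edgeR with mouse number in the model called 1, Mefv. Casp1 averaged 295 ± 36.1 CPM in SR9009+LPS and 379 ± 9.08 CPM in LPS, and Nlrp3 averaged 264 ± 119 CPM in SR9009+LPS and 333 ± 85.0 CPM in LPS (SD, n = 4 each). Without LPS, in SR9009 against DMSO, edgeR called 0 of the 13, beside 0.878% of all genes. Mefv (-0.997) and Nlrp3 (-0.762) were at an unadjusted p under 0.05 there. DESeq2, and edgeR with mouse number in the model, called Mefv lower, and limma-voom called 0.

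Of 19 genes of receptor-proximal signalling, 18 were tested. LPS raised 11 and lowered 3 relative to DMSO, beside the same 19.4% and 20.4% of all genes, with a median of 0.54 against -0.08 over all genes tested. Among those raised were the adaptor Myd88 (2.03, edgeR adjusted p = 5.71e-05), the kinase Irak2 (2.77, adjusted p = 2.32e-06) and the inhibitory Irak3 (2.46, adjusted p = 4.53e-05). The kinases Irak1 (-0.58, adjusted p = 0.0141) and Irak4 (-0.60, adjusted p = 0.0248) were lower.

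In SR9009+LPS against LPS, edgeR called 1 of the 18, where 1.79% of all genes were called in either direction. The gene was Ikbkg, the regulatory subunit of the IκB kinase complex. It averaged 143 ± 30.7 CPM in SR9009+LPS and 77.1 ± 5.21 CPM in LPS (SD, n = 4 each), a log2 fold change of 0.89 ± 0.17 (edgeR adjusted p = 0.0128). With mouse number in the model 2 were called, Ikbkg and Peli2, both higher. DESeq2 called 3, these 2 and Tollip, which was lower, and limma-voom called 1, Ikbkg. Myd88 averaged 198 ± 30.1 CPM in SR9009+LPS and 342 ± 15.2 CPM in LPS, and was not called. The median of the 18 was -0.07. Without LPS, in SR9009 against DMSO, edgeR called 0 of the 18, beside 0.878% of all genes. Ikbkg (0.495) and Myd88 (-0.942) were at an unadjusted p under 0.05 there, and DESeq2 called both.

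After SR9009, LPS relative to SR9009 alone raised both tested ligands, 1 receptor (Il18rap) of 4 and lowered 1 (Il1rl1), raised 6 and lowered 1 of the 13 processing genes, and raised 8 and lowered 1 of the 18 signalling genes. Of all genes tested, 14.5% were called higher and 15.8% lower in that comparison. In the model with mouse number the receptors numbered 1 higher and 2 lower, with Il1rl2 added, the processing genes 7 higher and 1 lower, with Casp8 added, and the signalling genes 9 higher and 2 lower, with Traf6 and Irak4 added. limma-voom did not call Il18rap. Il1rl1 had 0 counts in SR9009+LPS and 19 in sum in SR9009, so its call there rests on few counts. Nlrp3 averaged 264 ± 119 CPM in SR9009+LPS and 62.1 ± 16.8 CPM in SR9009, a log2 fold change of 2.08 ± 0.34 (edgeR adjusted p = 0.000208). Myd88 averaged 198 ± 30.1 CPM in SR9009+LPS and 43.6 ± 19.0 CPM in SR9009 (2.19 ± 0.30, edgeR adjusted p = 4.4e-05).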

How the data were processed

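RNA was measured in 16 libraries, 4 groups of 4, each mouse giving 1 library to every group. Gene counts were deposited by the authors as whole numbers for 56748 genes, with GRCm39 coordinates per the file headers. Alignment used HISAT2 and the build GRCm39 (mm39), per the submitters' processing notes, and the counting tool and its strand setting were not given in the labels or headers, so overlapping antisense transcripts cannot be told apart. The deposited FPKM values equalled the authors' counts divided by gene length and a constant per library, and were used to compare levels between genes.

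The members and gene lists were chosen with earlier results of these data known. Counts were filtered with edgeR's filterByExpr (minimum count 10, minimum total 15), scaled by TMM and tested with edgeR 4.0.16 (robust quasi-likelihood, R 4.3.3), 1 mean per group over 16 libraries, in 5 comparisons, Benjamini-Hochberg adjusted over 13438 genes at 0.05. SE was the log2 fold change over the square root of F. The steps were tested on simulated data. Depth was 12616442 to 24214863 counts, so members with few counts per library are imprecise. Il1rn to agonist ratios (0.5 counts added, per length) were tested with exact permutation tests (scipy 1.17.1). All 7 members were named, and likeness named the 5 nearest genes. Alternatives were RLE and upper-quartile scaling, other filters, DESeq2 1.42.0, limma 3.58.1 (voom, and log2 FPKM with 1 or 0.1 added), the compared groups alone, single libraries or mice left out, and mouse number as a block.

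Mouse numbers come from the labels, so libraries with 1 number share an animal. Deviations from group means correlated with a median r of 0.223 (0.0824 to 0.518) over 24 same-mouse pairs and -0.083 over 72 pairs of different mice.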

Additional observations from a re-analysis of the deposited data

Results flagged for a closer look

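Il1rap in the SR9009 library of mouse 1 stood apart from the other 3 SR9009 libraries, at 33.1 CPM against 12.4 to 15.1 CPM. Its gap to the nearest library was 0.868 of the range of its group, above Dixon's 95% critical value for 4 samples. Of 36 groups of 4 checked, 1 was marked, and chance marks about 1 in 20 groups. The same library had the lowest total, 12616442 counts, and the fewest genes with a count, 13298. Their part in the Il1rap value was not tested.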

How the results depend on the processing

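The LPS calls of Il1rn, Il1a, Il1b and Il18bp held in all 31 alternatives in both comparisons with LPS, and those of Il1rap in all but 1, without mouse 2 after SR9009 (log2 fold change 1.32, edgeR adjusted p = 0.0763). The calls of Il1a were partly fixed by the filter on low counts in both comparisons. The Il1rn call in SR9009+LPS against LPS also held in all 31, with log2 fold changes from -3.31 to -2.95. Mouse number as a replicate block changed 2 member calls, Il1r1 in SR9009+LPS against LPS (-2.55, adjusted p = 0.0434) and Il1rn in the interaction (-2.57, adjusted p = 0.0459), and no other member call. Upper-quartile scaling moved the median over all genes in LPS against DMSO to -0.28, with 2126 higher and 3459 lower (TMM: -0.08, with 2611 higher and 2741 lower), and kept the direction of every called member. Il1r1 had no value where it failed the filter: the stricter filter, without mouse 1, and 3 fits of the compared groups alone, in 1 of which (SR9009 against DMSO) Il1a failed it too. Over all alternatives the called log2 fold changes of the agonists in LPS against DMSO ran from 7.18 to 8.40 for Il1b and from 2.88 to 9.01 for Il1a, and in SR9009+LPS against SR9009 from 4.60 to 7.36 for Il1b and from 1.78 to 6.92 for Il1a, with the lowest Il1a values on log2(FPKM + 1).

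Members called in SR9009+LPS against LPS, 2 in the reported fit, numbered 1 with no filter, 1 to 3 when 1 library or mouse was left out, and 4 with the replicate block and mouse 1's SR9009 library omitted. Members called in the interaction, 0 in the reported fit, numbered 2 with DESeq2, 1 with limma on log2(FPKM + 1), 1 with limma on log2(FPKM + 0.1), 1 with the replicate block, 0 to 1 on leaving out a library or mouse, and 2 with the block and that library omitted.

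Genes called in LPS against DMSO (5352) numbered 3506 to 7835 on leaving out a library or mouse, and 8847 with the block and mouse 1's SR9009 library omitted. Those in SR9009 against DMSO (118) were 328 with DESeq2, 198 with the replicate block, 4 with the compared groups alone, 1 to 242 on leaving out, and 586 with the block and that library omitted. Those in SR9009+LPS against LPS (241) were 149 with no filter, 706 with DESeq2, 535 with the replicate block, 486 with the compared groups alone, 5 to 1566 on leaving out, and 2900 with the block and that library omitted. Those in SR9009+LPS against SR9009 (4070) were 2113 with the compared groups alone, 2430 to 5935 on leaving out, and 6845 with the block and that library omitted. Those in the interaction (1) were 98 with DESeq2, 0 with limma-voom, 52 and 12 with limma on log2 FPKM plus 1 and plus 0.1, 15 with the replicate block, 0 to 41 on leaving out, and 271 with the block and that library omitted. The upper end of each leave-out range was reached with that library omitted. The cause was not tested.

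The ratio of Il1rn to agonist changed sign in several settings. On leaving out a mouse, 3 against 3 libraries cannot give a p under 0.1, so those tests could not pass and only the values bear on stability. To Il1a in SR9009+LPS against SR9009 (-0.17), it was 0.79 with 0.1 CPM added, 2.88 with 1 CPM added, and -0.86 to 0.39 on leaving out. To Il1b in LPS against DMSO (-0.22) it was 0.23 with 1 CPM added and -0.73 to 0.38 on leaving out, and in SR9009 against DMSO (0.74) it was -0.38 with 1 CPM added and -0.22 to 1.59 on leaving out. To Il1b in SR9009+LPS against SR9009 (-1.63) it was -3.27 to 0.10 on leaving out, and to Il1a in LPS against DMSO (0.49) it was 4.21 with 1 CPM added, 1.77 with 0.1 CPM added and -0.047 to 1.24 on leaving out.

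Uncalled fold changes that changed sign were these. Il1a in SR9009 against DMSO (0.29) was -0.15 without mouse 4, -0.15 without its SR9009 library and -0.14 without the DMSO library of mouse 3, in a range up to 1.02 on leaving out. Il1b in SR9009 against DMSO (0.47) was -1.45 with limma-voom, -0.70 with limma on log2(FPKM + 0.1), -0.12 without mouse 2, -0.58 without its SR9009 library, up to 0.92 on leaving out, and -0.39 with the block and mouse 1's SR9009 library omitted. Il1rap in SR9009 against DMSO (0.47) was -0.01 with that library omitted, and up to 0.62 on leaving out others. Il1r1 in SR9009+LPS against SR9009 (-0.26) was 0.08 without mouse 4, 0.003 without the SR9009+LPS library of mouse 3, and 0.11 without the SR9009 library of mouse 2, down to -0.57 on leaving out others. The cause was not tested. Low counts limit what can be said of Il1r1, Il1r2, Il1a without LPS, and Il1b in the SR9009 libraries of mice 3 and 4.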
